A study of Macaca mulatta with 11 samples.

Results

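The genes described here encode the enzymes and transporters of glycolysis and of the pentose phosphate pathway, together with the kinases that set the fate of pyruvate and of fructose 6-phosphate. They were chosen by name, as a list of 30 genes, and every probe set annotated to one of them was taken, alone or with another gene. This gave 52 probe sets, out of 22215 on the array, for 29 of the 30 genes. SLC16A1, which encodes a lactate transporter, was not analysed here. Of the 52 probe sets 50 named 1 gene and 2 named both SLC2A3 and SLC2A14. Each gene is described by the probe set with the highest mean log2 intensity among those that name it alone, and the others are given where they differ.

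Glycolysis splits glucose into pyruvate in the cytosol. Glucose enters through transporters, is trapped by phosphorylation, is cleaved into a pair of triose phosphates and is then oxidised in steps that return ATP. Pyruvate is either reduced to lactate or carried into mitochondria, where pyruvate dehydrogenase kinases hold back its oxidation. The pentose phosphate pathway branches off at glucose 6-phosphate, supplies NADPH and ribose for nucleotides, and its transketolase and transaldolase return sugars to glycolysis. Cultured marrow stromal cells are known to rely largely on glycolysis.

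Mesenchymal stem cells, which are stromal cells that adhere to plastic, were grown from marrow of untreated rhesus monkeys (Macaca mulatta) and collected at the second passage, with 1 array for each of 11 cultures. Of the 4 arrays titled fetal, the donors of arrays 1 and 2 were at gestation day 120 and those of arrays 3 and 4 were newborn. The 4 infant arrays came from donors aged 6, 6, 3 and 5 months and the 3 adult arrays from donors aged 7, 7 and 8 years. Marrow of all fetal-titled donors was flushed from long bones and that of infants and adults was aspirated, so an effect of flushing and one of the fetal stage cannot be told apart. Whether cultures of one age had separate donors is not stated in the labels, and the p-values therefore measure the spread between these cultures.

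The deposited intensities were similar in overall brightness, with array medians between 164.9 and 169.6, and array pairs correlated at 0.928 to 0.983 on the log2 scale. Of 9 measured marrow stromal markers 8 exceeded the median level of all probe sets. Among the markers, COL1A1 lay between 14.15 and 15.12 and ENG between 8.70 and 9.33 on the log2 scale. Of 8 erythroid markers 6 exceeded that level too, as did 6 of 9 plasma cell markers, so brightness alone does not identify the cells. Adult arrays 1 and 2 stood apart in the light chain gene IGLC1, an antibody gene, at 12.82 and 13.23 against 9.10 in adult array 3 and at most 8.30 in the others, so the comparison of fetal with adult arrays is also given without them. The probes were designed for human genes, so levels are not compared between genes. In RNA from whole cultures fewer cells of a type and less RNA per cell cannot be told apart.

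Between fetal and adult cultures most of the glycolysis genes lay higher in the fetal arrays, but none passed the test over the whole array. Of the 29 genes 22 had a higher mean in fetal arrays, with a median difference of 0.16 on the log2 scale, whereas 49.9% of 11963 genes were higher and their median was -0.000337. None of the 52 probe sets passed an adjusted p of 0.05 in limma, where 0.131% of all probe sets did. At an unadjusted p of 0.05, 18 of the 52 were higher in fetal arrays, 34.6% against a background of 4.83%, and 1 was lower, against a background of 4.12%. The fetal arrays lay wholly above the adult arrays in 6 of the 52 probe sets, where 3.66% of all did so, and wholly below in 1, where 4.41% did so.

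Most of these genes are bright, and bright genes as a whole leaned the same way. Among the 1197 brightest of all genes, 67.6% were higher in fetal than in adult arrays, with a median difference of 0.115, and 18.9% were higher at an unadjusted p of 0.05. Of the 16 glycolysis and pentose phosphate genes among them, 14 were higher, with a median of 0.28, and 8 reached that p. When the log2 values were quantile normalised once more, the median difference was 0.0812 for the 29 genes and 0.0358 for the 1197 brightest genes, and 22 of 29 were still higher. Without fetal array 1 these medians were 0.11 and 0.117, and 23 of 29 were higher.

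Leaving out adult arrays 1 and 2 leaves adult array 3 as the single adult array, so limma then takes the spread from the fetal and infant arrays and assumes that adults vary alike. In that fit 22 of the 29 genes were higher in fetal arrays, with a median difference of 0.24 beside 0.18 for the 1197 brightest genes. None of the 52 probe sets passed in limma, where 0.198% of all did. At an unadjusted p of 0.05, 8 were higher, or 15.4% of the 52 against 4.95% of all probe sets and 25.7% of the brightest genes. The first and last of these shares are of unlike sets. The 52 probe sets include several for some genes and 10 below the median level, whereas the brightest genes have 1 probe set each. No conclusion is therefore drawn from setting them side by side.

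**Figure D1:**
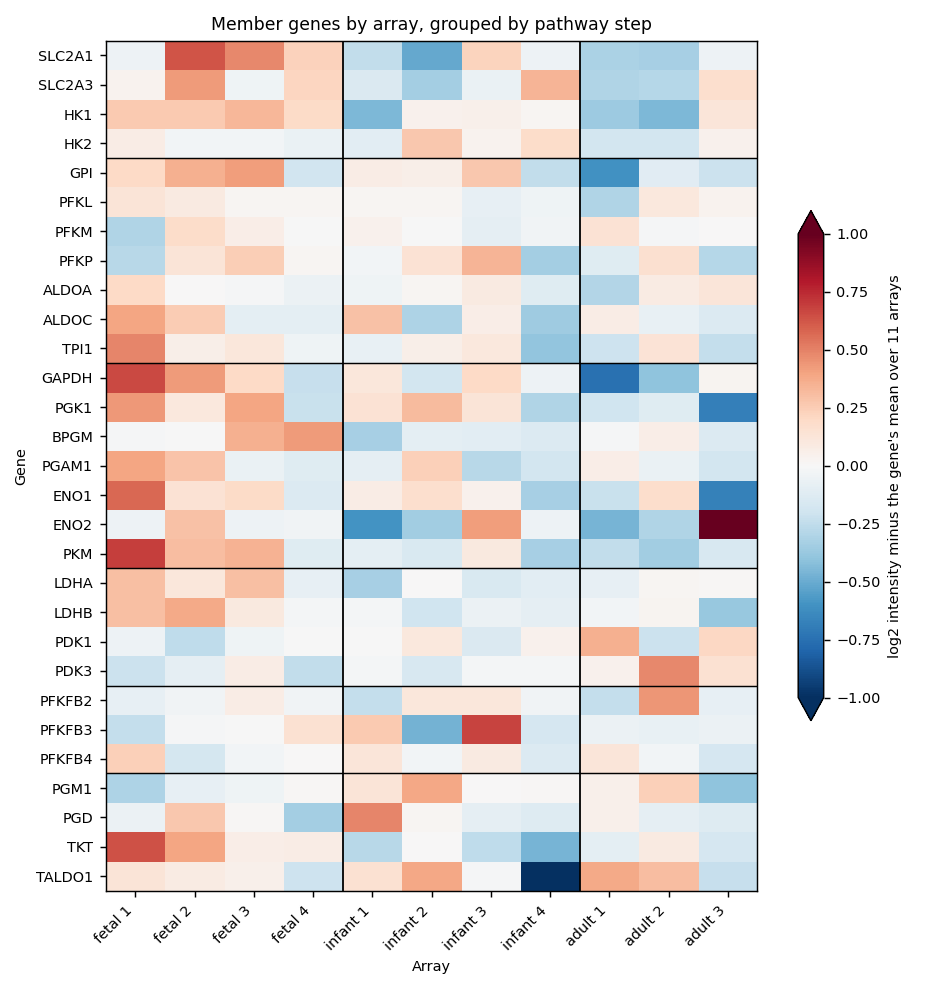
Log2 intensity of the 29 measured genes (rows, divided by pathway step) in the 11 arrays (columns, divided by age group), as the difference from each gene's mean over all arrays. Colours end at a difference of 1 in either direction. Fetal array 1 is the highest array for 12 genes, and infant array 4 lies above the mean of the gene for 5 of 29.

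The arrays of the fetal group were not alike. Fetal arrays 1, 2 and 3 lay above the gene's own mean for 18, 21 and 20 of the 29 genes, fetal array 4 for 10. Infant array 4 did so for 5 genes, and the other infant arrays for 12, 16 and 17. Adult arrays 1 to 3 did so for 9, 13 and 11. By the median deviation from the gene's own mean, both gestation day 120 arrays (0.13 and 0.13) lay above both newborn arrays (0.0672 and -0.0379).

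Genes for proliferation also set fetal array 4 apart, but did not divide the newborn from the gestation day 120 arrays. The median deviation of 15 proliferation genes from their own means was 0.58, 0.42, 0.49 and -0.33 in the fetal arrays in order. It was -0.29, -0.14, 0.15 and -0.55 in infant arrays 1 to 4 and between -0.25 and -0.11 in adult arrays. For the 29 glycolysis and pentose phosphate genes the same measure was 0.13, 0.13, 0.0672 and -0.0379 in fetal arrays 1 to 4, between -0.12 and 0.0481 in infant arrays and between -0.13 and -0.0277 in adult arrays. Both lists were thus lowest in fetal array 4 among fetal arrays and in infant array 4 among infant arrays. The part of proliferation in the differences was not tested.

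At the entry of glucose, the transporter genes and HK1 lay higher in fetal arrays and HK2 hardly differed. HK1 encodes the widely expressed hexokinase, which phosphorylates glucose. It read 10.45, 10.45, 10.52 and 10.38 in fetal arrays 1 to 4, 9.74, 10.23, 10.24 and 10.21 in infant arrays 1 to 4, and 9.83, 9.74 and 10.31 in adult arrays 1 to 3. All fetal arrays lay above every infant and adult array, although adult array 3 came close to them. The fetal mean of 10.45 ± 0.057 (SD, n = 4) exceeded the adult mean of 9.96 ± 0.31 (SD, n = 3) by 0.49 (SE 0.15), a 1.41-fold difference outside the threshold (limma adjusted p = 0.282). Without adult array 3 it was 0.67 and passed (limma adjusted p = 0.0481), and against adult array 3 alone it was 0.14. The difference from infants was 0.34 with all arrays and 0.22 without infant array 1.

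HK2, the hexokinase induced by insulin and hypoxia, had means of 8.57, 8.68 and 8.47 in fetal, infant and adult arrays, and the groups overlapped. Its fetal-to-adult difference was 0.099 with a 95% interval from -0.14 to 0.34, and its other probe set differed by 0.17. SLC2A1 encodes GLUT1, the basal glucose transporter. It read 8.43, 9.11, 8.96 and 8.71 in fetal arrays, 8.23, 7.97, 8.70 and 8.43 in infant arrays and 8.16, 8.15 and 8.43 in adult arrays. Fetal arrays 2 to 4 lay above all others, while fetal array 1 lay at the level of infant array 4 and adult array 3. Its difference of 0.55 (SE 0.18) between fetal and adult means did not pass (limma adjusted p = 0.323), and a second, dim probe set of the gene differed by -0.18.

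SLC2A3 encodes GLUT3, a transporter of high affinity. The smallest p of all 52 probe sets came from a probe set annotated to both SLC2A3 and its close relative SLC2A14, which cannot be assigned to one of them. It read 9.47, 9.72, 9.55 and 9.78 in fetal arrays, 8.82, 9.27, 9.18 and 9.59 in infant arrays, and 8.79, 8.48 and 8.97 in adult arrays. The fetal arrays lay above all adult arrays, with infant arrays between them and overlapping both. The fetal-to-adult difference was 0.88 (SE 0.16), a 1.84-fold difference just outside the threshold (limma adjusted p = 0.0571). It passed with array weights (difference 0.90, limma adjusted p = 0.0165), with dim probe sets left out (0.88, limma adjusted p = 0.0495) and without adult array 3 (0.99, limma adjusted p = 0.0211). The probe sets that name SLC2A3 alone differed by 0.51, 0.30 and -0.17, the last of them dim, and none passed. The other probe set annotated to both genes differed by 0.35 with overlapping groups (limma adjusted p = 0.487).

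**Figure D2:**
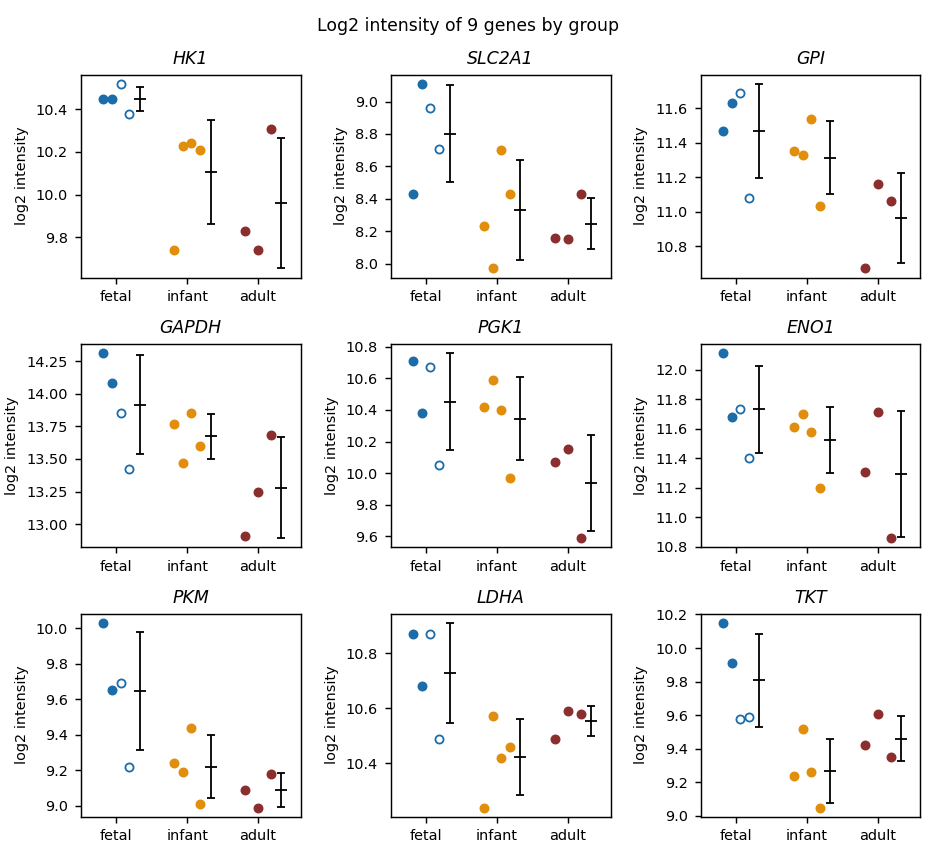
Log2 intensity of 9 genes in fetal, infant and adult arrays, with 1 point per array and the mean ± SD beside each group. Open points are the newborn arrays of the fetal group. HK1 is the gene of these whose fetal arrays all lie above every infant and adult array, and the vertical axes differ and do not start at 0.

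Among the steps from glucose 6-phosphate to triose phosphates, GPI lay higher in fetal arrays and the aldolase and phosphofructokinase genes gave smaller differences, apart from 1 probe set of PFKL. GPI, the isomerase that makes fructose 6-phosphate, read 11.47, 11.63, 11.69 and 11.08 in fetal arrays, 11.35, 11.33, 11.54 and 11.03 in infant arrays and 10.67, 11.16 and 11.06 in adult arrays. Fetal array 4 and infant array 4 lay within the adult range, so both groups overlapped the adults. The fetal-to-adult difference was 0.50 (SE 0.165, limma adjusted p = 0.331) and the infant-to-adult difference 0.35 (SE 0.165, limma adjusted p = 0.805).

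Phosphofructokinase commits sugar to glycolysis and is built from liver, muscle and platelet type subunits. The genes of the muscle and platelet types, PFKM and PFKP, differed by -0.060 and 0.11 between fetal and adult arrays. Their 95% intervals ran from -0.31 to 0.19 and from -0.25 to 0.47. PFKL, the liver type, was read differently by its probe sets. The brighter one differed by 0.11 (limma adjusted p = 0.815). The other read 9.66, 9.24, 9.49 and 9.12 in fetal, 9.13, 9.29, 9.61 and 9.33 in infant, and 8.67, 8.85 and 9.21 in adult arrays, a difference of 0.46 for fetal and 0.43 for infant against adult arrays (limma adjusted p = 0.359 and 0.711). In it adult array 3 overlapped both younger groups.

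ALDOA, the main aldolase, was nearly level, with means of 12.80, 12.76 and 12.74 in fetal, infant and adult arrays. ALDOC, the aldolase of brain, had means of 7.86, 7.67 and 7.70, and the triose phosphate isomerase gene TPI1 had 10.05, 9.82 and 9.79. Their fetal-to-adult differences of 0.064, 0.16 and 0.25 did not pass, with intervals that all included 0. The other probe sets of TPI1 differed by 0.40 (limma adjusted p = 0.619) and by 0.0081, the latter dim. ALDOC read 8.14, 8.00, 7.65 and 7.65 in the fetal arrays in order, so both newborn arrays lay below both gestation day 120 arrays, by 0.42 on average. Its infant arrays read 8.04, 7.44, 7.81 and 7.39 and its adult arrays 7.82, 7.67 and 7.61, overlapping the fetal range.

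In the payoff steps 6 of 7 genes had higher means in fetal than in adult arrays, with a median difference of 0.44, and 4 of them reached an unadjusted p of 0.05, as did 5.79% of all genes and 18.9% of the 1197 brightest. GAPDH, the dehydrogenase often used as a reference for other transcripts, read 14.31, 14.08, 13.85 and 13.42 in fetal arrays, 13.77, 13.47, 13.85 and 13.60 in infant arrays and 12.91, 13.25 and 13.68 in adult arrays. Fetal array 4 lay below adult array 3, and the infant mean of 13.67 lay between the other group means. The fetal mean of 13.92 ± 0.38 (SD, n = 4) exceeded the adult mean of 13.28 ± 0.39 (SD, n = 3) by 0.64 (SE 0.20), or 1.56-fold (limma adjusted p = 0.305). Its other 2 probe sets differed by 0.70 and 0.79 (limma adjusted p = 0.168 and 0.197). All 3 probe sets carry the suffix for probes that can also bind other transcripts. Without fetal array 4 both of these others passed (limma adjusted p = 0.0366 and 0.0203), and against adult array 3 alone the difference of the brightest was 0.24.

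PKM encodes the muscle type pyruvate kinase, which makes pyruvate and ATP in the last step. It read 10.03, 9.65, 9.69 and 9.22 in fetal arrays, 9.24, 9.19, 9.44 and 9.01 in infant arrays and 9.09, 8.99 and 9.18 in adult arrays. Every fetal array lay above every adult array, though fetal array 4 exceeded the highest adult array by little and lay below 2 infant arrays. The difference of 0.56 (SE 0.16), or 1.48-fold, did not pass with all arrays (limma adjusted p = 0.245) and passed without fetal array 4, at 0.71 (limma adjusted p = 0.0418). A second, dim probe set differed by 0.13.

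PGK1, a phosphoglycerate kinase that forms ATP, read 10.71, 10.38, 10.67 and 10.05 in fetal arrays, 10.42, 10.59, 10.40 and 9.97 in infant arrays and 10.07, 10.15 and 9.59 in adult arrays. Fetal array 4 and infant array 4 lay within the adult range and the other arrays of both groups above it. The difference from adults was 0.52 (SE 0.19) for fetal and 0.41 (SE 0.19) for infant arrays (limma adjusted p = 0.405 and 0.784). Without adult array 3, which read lowest, these were 0.34 and 0.24. Of its other 3 probe sets 2 differed between fetal and adult arrays by 0.49 and 0.41, and the dimmest by -0.28.

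ENO1, the common enolase, averaged 11.73 ± 0.29 (SD, n = 4) over the fetal and 11.29 ± 0.43 (SD, n = 3) over the adult arrays, with infants at 11.52 ± 0.22 (SD, n = 4) and a fetal-to-adult difference of 0.44 (limma adjusted p = 0.533). Adult array 3 was low at 10.86, and without it the difference was 0.22. The probe sets of this gene disagreed, since the other 2 differed by -0.61 and 0.19. The one at -0.61 read between 8.37 and 8.61 in fetal arrays and 9.96, 8.69 and 8.63 in adult arrays. That was the 1 probe set of the 52 whose fetal arrays lay wholly below the adult arrays.

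ENO2, the enolase of neurons, was set apart by 1 array. It read 9.00 in adult array 3 against 7.34 and 7.50 in adult arrays 1 and 2. The fetal arrays ranged from 7.75 to 8.10 and the infant arrays from 7.21 to 8.22. Its fetal-to-adult difference was -0.11 with all arrays and 0.42 without adult array 3, and with array weights it was 0.12. Against adult array 3 alone it was -1.16. PGAM1, a phosphoglycerate mutase, read 10.61, 10.50, 10.15 and 10.09 in fetal, 10.12, 10.45, 9.94 and 10.03 in infant, and 10.28, 10.15 and 10.03 in adult arrays. Both gestation day 120 arrays lay above all others, and both newborn arrays lay within the adult range. The fetal-to-adult difference of PGAM1 was 0.18 (limma adjusted p = 0.779). BPGM, which makes the 2,3-bisphosphoglycerate of red cells, differed by 0.21. It was dim, at the 17.9th percentile of all probe sets.

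**Figure D3:**
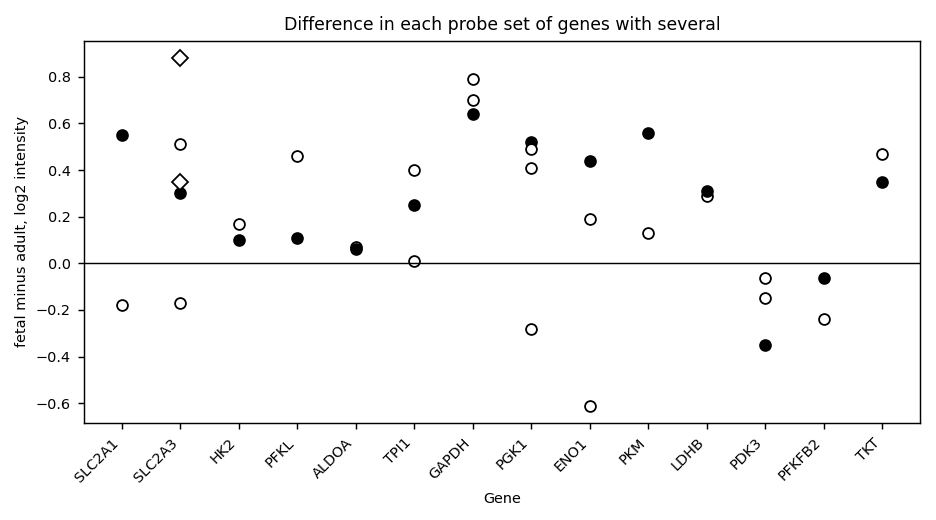
Fetal-to-adult difference in log2 intensity for each probe set of the 14 genes with several. Filled points are the probe sets with the highest mean, and diamonds are the 2 probe sets annotated to SLC2A3 and SLC2A14. GAPDH points lie between 0.64 and 0.79, whereas those of ENO1 run from -0.61 to 0.44.

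At the branch from pyruvate, the lactate dehydrogenase genes lay a little higher in fetal arrays and the kinase genes a little lower. LDHA, the subunit common in muscle, read 10.87, 10.68, 10.87 and 10.49 in fetal arrays, 10.24, 10.57, 10.42 and 10.46 in infant arrays and 10.49, 10.59 and 10.58 in adult arrays. Fetal arrays 1 to 3 lay above all others and fetal array 4 among the infants and adults. Its difference was 0.18 against adult and 0.30 against infant arrays (limma adjusted p = 0.714 and 0.616). LDHB, the subunit common in heart, read 11.04, 11.12, 10.84 and 10.72 in fetal, 10.72, 10.54, 10.68 and 10.65 in infant, and 10.71, 10.77 and 10.36 in adult arrays. Fetal arrays 1 to 3 lay above all others. The fetal mean differed by 0.31 from adults and by 0.28 from infants (limma adjusted p = 0.462 and 0.684), and without adult array 3 the former was 0.19.

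PDK1 and PDK3 encode kinases that inhibit pyruvate dehydrogenase. PDK3 read 6.97, 7.10, 7.26 and 6.94 in fetal arrays, 7.17, 7.03, 7.17 and 7.17 in infant arrays and 7.23, 7.67 and 7.34 in adult arrays. Infant arrays lay wholly below the adults and fetal arrays overlapped them at array 3. The differences of -0.35 and -0.28 from adult arrays did not pass (limma adjusted p = 0.366 and 0.767), and the probe set lies below the median level of all. Its other 2 probe sets differed by -0.065 and -0.15 between fetal and adult arrays, and PDK1 by -0.20.

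The bifunctional enzymes that make and remove fructose 2,6-bisphosphate, an activator of phosphofructokinase, gave overlapping groups in every comparison. PFKFB2, PFKFB3 and PFKFB4 differed by -0.065, 0.042 and 0.033 between fetal and adult arrays, with limma adjusted p of at least 0.945. A second, dim probe set of PFKFB2 differed by -0.24 (limma adjusted p = 0.646). PFKFB3, known to be induced by hypoxia and mitogens, ranged among infants from 7.16 in array 2 to 8.31 in array 3.

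In the pentose phosphate pathway TKT lay higher in fetal than in infant and adult arrays, and PGD and TALDO1 gave overlapping groups. TKT encodes transketolase, which links the pathway back to glycolysis. It read 10.15, 9.91, 9.58 and 9.59 in fetal arrays, 9.24, 9.52, 9.26 and 9.05 in infant arrays and 9.42, 9.61 and 9.35 in adult arrays. All fetal arrays exceeded all infant arrays, and those from newborns lay within the adult range. The difference was 0.54 (SE 0.14), or 1.45-fold, against infant arrays (limma adjusted p = 0.497) and 0.35 (SE 0.15) against adult arrays (limma adjusted p = 0.511), the latter being 0.23 without fetal array 1. Its other probe set differed by 0.41 and 0.47 in these comparisons, with another order of arrays. In it fetal array 4 (9.07) lay below infant arrays 1 and 2 (9.29 and 9.20), and all fetal arrays lay above the adults.

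PGD, the dehydrogenase of the oxidative branch, had means of 8.07, 8.17 and 8.04 in fetal, infant and adult arrays. TALDO1, or transaldolase, had 10.65, 10.51 and 10.79, with infant array 4 low at 9.60. PGM1, which links glycogen to glucose 6-phosphate, had 9.28, 9.52 and 9.35. None of these 3 passed in any comparison, and their fetal-to-adult intervals included 0.

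**Figure D4:**
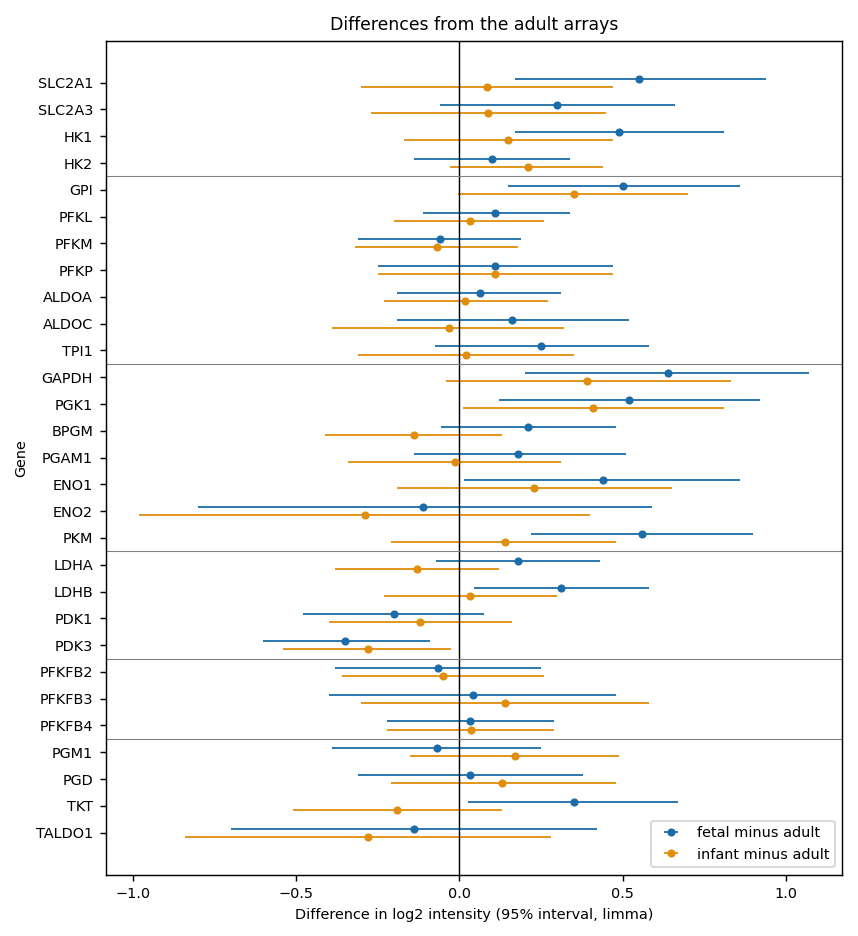
Difference from the adult mean in log2 intensity for fetal and infant arrays, with limma's 95% interval (unadjusted), for the 29 genes in pathway order. The fetal intervals of 10 genes exclude 0, among them SLC2A1, HK1, GPI, GAPDH, PGK1 and PKM, and those of PDK3 lie below 0.

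Between infant and adult cultures the median difference of the glycolysis genes lay close to that of the brightest genes. Of the 29 genes 18 (62.1%) were higher in infant than in adult arrays, with a median difference of 0.0341. Of all genes 45.3% were higher, with a median of -0.0174. Of the 1197 brightest genes 56.2% were higher, with a median of 0.0284, and 7.69% were higher at an unadjusted p of 0.05. At that p 3.45% of the 29 genes were higher. None of the 52 probe sets passed, where 0.018% of all did. At an unadjusted p of 0.05, 4 probe sets were higher and 1 was lower, against backgrounds of 2.39% and 3.79%. The infant arrays lay wholly above the adults in 1 probe set, a GAPDH one, and wholly below in 1, that of PDK3, against backgrounds of 1.8% and 3.18%. The 4 that were higher are 7.69% of the 52, and the single probe sets are 1.92%. With the replicate block, 0 of the 52 passed and the median was 0.0535. The median was 0.00526 without adult array 3 and 0.00537 without infant array 3, with 15 of the 29 genes higher in each, and 0.0723 without adult array 2.

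Between fetal and infant cultures 20 of the 29 genes (69.0%) were higher in fetal arrays, with a median difference of 0.16. Of all genes 54.6% were higher, with a median of 0.0161, and of the 1197 brightest genes 63.7%, with a median of 0.086. No probe set of the 52 passed and 0.0% of all did. At an unadjusted p of 0.05, 10 of the 52 were higher, 19.2% against a background of 4.55%, and 0 were lower, against 2.33%. Counted by gene, with 1 probe set each, 24.1% of the 29 genes and 13.7% of the 1197 brightest were higher at that p. The fetal arrays lay wholly above the infants for 3 probe sets, those of HK1 and BPGM and the brighter one of TKT, where 2.13% of all did so. They lay wholly below for 0, where 1.21% did so. BPGM differed by 0.36 (SE 0.12, limma adjusted p = 0.608), with newborn arrays at 7.33 and 7.40 above all others. These comparisons share arrays with those against adults. Over the 3 groups at once, 0 of the 52 passed, against 0.036% of all, and 17 reached an unadjusted p of 0.05, 32.7% against 8.01%.

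Within the fetal group, newborn arrays were compared with those from gestation day 120, with 2 arrays each. Of the 29 genes 19 were lower in newborn arrays and 34.5% were higher. Of all genes 48.5% were higher, and of the 1197 brightest 42.1%. The median difference was -0.13 for the 29 genes, -0.00532 for all genes and -0.0395 for the 1197 brightest. None of the 52 probe sets passed, where 0.0% of all did, and 6 reached an unadjusted p of 0.05, against 1.81%. They were all 3 probe sets of GAPDH (-0.56, -0.46 and -0.60), PGAM1 (-0.44) and TKT (-0.44), lower in newborns, and BPGM (0.40), higher. Of the 15 proliferation genes 13 were lower in newborn arrays, with a median difference of -0.53. Their median deviation was 0.58 and 0.42 in the gestation day 120 arrays, and 0.49 and -0.33 in newborn arrays 3 and 4. Only array 4 was thus low in these genes, and their part in the differences was not tested. Against adults, the gestation day 120 arrays alone gave 38.5% of the 52 probe sets higher at an unadjusted p of 0.05, against 4.74% of all probe sets and 17.8% of the brightest genes. The newborn arrays alone gave 13.5%, against 2.59% and 9.94%, and the difference between these shares was not tested. The brightest genes have 1 probe set each and are thus a set unlike the 52. No conclusion is drawn from setting their shares beside those of the 52.

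The balance between isoenzymes was compared within each array as the difference of their log2 intensities, over 8 pairs chosen by name. A shift in such a difference shows unequal change of the pair. HK1 minus HK2 was 1.79, 1.89, 1.96 and 1.87 in fetal arrays, 1.27, 1.37, 1.62 and 1.44 in infant arrays and 1.43, 1.34 and 1.68 in adult arrays. All fetal arrays lay above all others, by 0.45 over the infant mean and 0.39 over the adult mean. An exact permutation test over the 11550 ways to assign the arrays to groups gave p = 0.00589, and 0.0471 after Benjamini-Hochberg adjustment over the 8 pairs. This pass was narrow, and the adjustment covers these 8 pairs alone. The pairs were drawn from genes that were chosen with earlier results of these data known. With 1 array left out the exact permutation test gave adjusted p-values from 0.0267 to 0.171, of which only that without infant array 3 passed. With the mean over the probe sets of each gene it gave an adjusted p of 0.231.

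The other 7 pairs did not pass, with adjusted p between 0.808 and 0.825 in the exact permutation test. LDHA minus LDHB had means of -0.20, -0.22 and -0.060 in fetal, infant and adult arrays. SLC2A1 minus SLC2A3 had 0.27, 0.010 and 0.020. ENO1 minus ENO2 had 3.89, 3.86 and 3.34, and its lowest value was 1.85 in adult array 3. The groups overlapped in each of these 7 pairs.

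**Figure D5:**
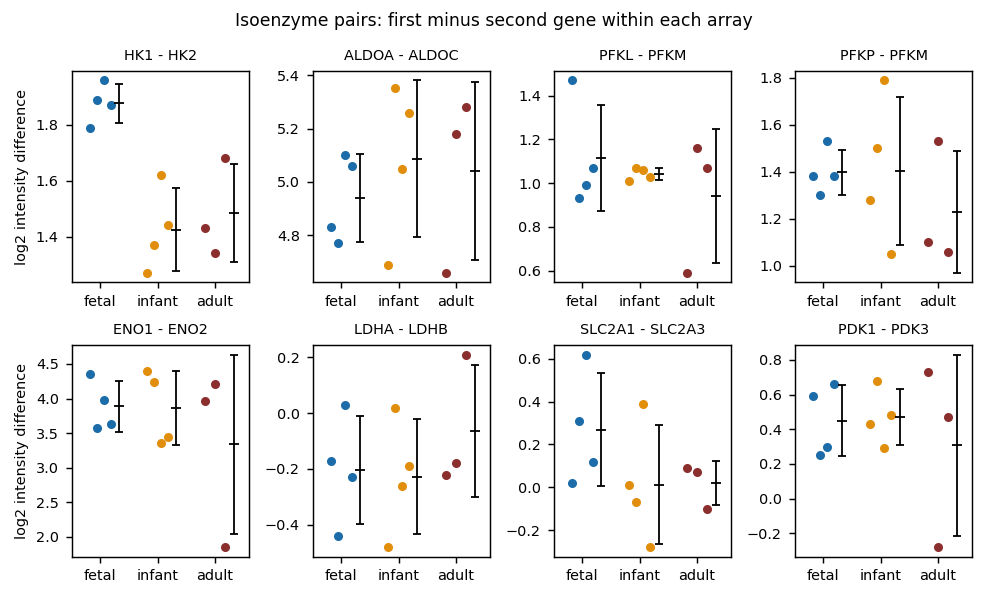
Difference in log2 intensity between the genes of 8 isoenzyme pairs within each array, by age group, with 1 point per array and the mean ± SD beside each group. HK1 minus HK2 lies between 1.79 and 1.96 in fetal arrays and at 1.68 or lower elsewhere, and the vertical axes differ.

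Neighbouring pathways were described from lists chosen by name. As background, 49.9% of all genes and 67.6% of the 1197 brightest were higher in fetal than in adult arrays. Of 17 further glycolysis and pentose phosphate enzymes 10 were higher and 7 lower in fetal than in adult arrays, with a median of 0.0439, and none passed in any comparison. TKTL1, a relative of transketolase, differed by -0.41 (limma adjusted p = 0.275). Of 10 genes for pyruvate dehydrogenase, its regulators and the pyruvate carrier 7 were higher, with a median of 0.0681, and PDHX, a structural subunit, differed by 0.49 (limma adjusted p = 0.281). Of 7 glycogen and sugar nucleotide genes 5 were higher and of 8 gluconeogenesis genes 2, with medians of 0.051 and -0.0744. Of 9 other sugar and monocarboxylate carriers 2 were higher, though only 2 of the 9 exceeded the median level of all probe sets.

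Hypoxia induces many glycolysis genes through the factor HIF1A. Of 17 other genes known to be induced by hypoxia 12 (70.6%) were higher in fetal than in adult arrays, with a median of 0.0902, and none passed. This share lay near that of the 1197 brightest genes, of which 67.6% were higher, with a median of 0.115. Of all genes 49.9% were higher. VEGFA, an angiogenic factor, was higher by 0.70 (limma adjusted p = 0.455), with adult arrays at 10.67, 10.66 and 11.49. HIF1A itself was higher by 0.39 (limma adjusted p = 0.534). Of 11 regulators of glycolysis, HIF1A among them, 7 were higher, with a median of 0.0528. Of the 15 proliferation genes 14 were higher, with a median of 0.37, none passed, and CDC20 was higher by 1.26 (limma adjusted p = 0.358).

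Markers of other cell types were read beside these values, since red cells are rich in BPGM and nerve and muscle cells in some isoenzymes. None of the markers passed in any of the 3 comparisons of age groups. Of 8 erythroid markers 4 were higher and 4 lower in fetal than in adult arrays, with a median of 0.00746, and HBB lay between 7.71 and 8.10 in all arrays. Of 9 neural and glial markers 4 were higher, with a median of -0.02, and of 9 skeletal muscle markers 4, with a median of -0.0212. Of 9 macrophage and leukocyte markers 3 were higher, with a median of -0.17, and of 7 endothelial markers 3, with a median of -0.0048. Of 9 plasma cell markers 3 were higher, with a median of -0.15, and of 9 marrow stromal markers 4, with a median of -0.12. At an unadjusted p of 0.05 in limma, 33.3% of the plasma cell markers were lower in fetal than in adult arrays, against 4.13% of all genes. The smallest limma adjusted p of this list was 0.0561, just outside the threshold. Between infant and adult arrays 33.3% of the list were lower too, against 4.0% of all genes (smallest limma adjusted p = 0.146). Over the arrays the median deviation of the erythroid list lay between -0.0603 and 0.10, and that of the plasma cell list between -0.39 and 0.30.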

How the data were processed

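The authors deposited 1 intensity for each probe set and array, on a linear scale, and log2 of it was taken here. The submitters' processing notes name RMA, without a version. RMA equalises the arrays' distributions at the level of single probes, which lessens differences in total brightness. The deposited probe set values still differed between arrays, with array medians between 164.9 and 169.6. Quantile normalising them again lowered the fetal-to-adult median of the 1197 brightest genes from 0.115 to 0.0358. Of 22215 probe sets, 19065 had 1 symbol in the platform annotation, 1043 several and 2107 none. A linear model with a mean for each group (or per stage, for newborn against gestation day 120) was fitted over all 11 arrays and all probe sets with lmFit and eBayes of limma 3.58.1 (R 4.3.3), two-sided, and Benjamini-Hochberg adjustment over all probe sets. On simulated data with a log2 shift of 1 in 200 of 22215 probe sets, the fit recovered 90% between fetal and adult groups. With all arrays, the largest fetal-to-adult difference among the glycolysis and pentose phosphate genes was smaller, at 0.88. No shift below 1 was simulated, so the 90% does not measure recovery at the sizes seen in these genes. The simulated noise was independent between arrays. The number of arrays limits the precision.

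Named in full are genes with an unadjusted p under 0.05 in a comparison or among the 4 largest differences in one. PFKL, SLC2A3 and single probe sets outside this rule were picked with their values known. The members and lists were chosen with earlier results of these data known. Deviations from group means of same-numbered infant and adult arrays had correlations of 0.145, 0.131 and 0.204, which passes the check for pairs, although the labels give no reason for a pairing. Fetal and adult arrays did not pass it. Alternatives were another normalisation, a filter, array weights, a replicate block, fewer arrays and, chosen after the data were seen, leaving out adult arrays 1 and 2.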

Additional observations from a re-analysis of the deposited data

Results flagged for a closer look

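In 3 of the 58 combinations of a gene with the fetal or infant group, 1 array stood far from the other 3 of its group (Dixon's criterion), where chance flags about 1 in 20 groups. HK1 read 9.74 in infant array 1 and between 10.21 and 10.24 in the other infant arrays. ENO2 read 8.10 in fetal array 2 and between 7.75 and 7.77 in the other fetal arrays. PDK3 read 7.03 in infant array 2 and 7.17 in the other infant arrays.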

How the results depend on the processing

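Of the 52 probe sets, 0 passed between fetal and adult arrays with all arrays, 1 passed among probe sets above the median level and 1 with array weights, and leaving out 1 array gave 0 to 3. Calls rose over the whole array too, from 0.131% of all probe sets to 0.324% and 0.54% in the first pair of settings, 0.689% without adult array 3 (2 of the 52) and 0.54% without fetal array 4 (3 of the 52). Those were the SLC2A3 and SLC2A14 probe set, HK1, PKM and 2 of GAPDH. Over the 3 groups 1 passed with array weights. No other alternative gave a call among them. With the replicate block 0 passed in each comparison of groups, and the median differences were 0.14 for fetal against adult, 0.0535 for infant against adult and 0.16 for fetal against infant arrays. The fetal-to-adult median of 0.16 became 0.0812 when the values were quantile normalised again and 0.24 without adult arrays 1 and 2, with all genes at -0.000249 and -0.0064. For infant against adult arrays the median of 0.0341 ranged from 0.00526 to 0.0723 with 1 array left out. For fetal against infant arrays it ranged from 0.0748 (without infant array 4) to 0.21 (without fetal array 4) with 1 array left out. For HK1 and HK2, the 1 called isoenzyme pair became 0 with the mean over probe sets and 0 to 1 with an array left out. The cause of these changes was not tested. The number of arrays limits the precision: the fetal-to-adult SE was 0.149 for HK1 and 0.202 for GAPDH.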
